A study of Homo sapiens with 36 samples.

Results

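The 45 genes described here encode the machinery that copies DNA in S phase and the factors that open the G1/S transition. They were taken as a list of replication genes which, like the other gene lists below, was chosen with earlier results of these data known. All 45 were found among the 28516 gene rows of the deposited count table and passed the filter on low counts, which left 19689 genes. RNA-seq had been performed on cultured human neural stem cells (hNSC), a commercial line of neural progenitors, in 6 conditions of 6 libraries each, 48 h after lentiviral infection. In MEIS1-OE and MEIS2-OE, the gene in question was overexpressed by CRISPR-activation, in which a catalytically dead Cas9 carrying an activator domain, a helper complex and the guides were delivered on separate viruses. In MEIS1-KO and MEIS2-KO, cutting Cas9 and the guides were delivered together, as a mixture of guides against the same gene. Control cells received the same system with non-targeting guides (ctrl-OE and ctrl-KO), so that ctrl-OE and ctrl-KO differ in the whole vector system. Non-targeting guides direct no cut to a gene. Loss of the gene and the cutting itself therefore cannot be told apart in MEIS1-KO or MEIS2-KO. Each library is a bulk culture, the share of infected cells is not given in the sources used here, and the sources used here do not state whether the 6 libraries of a condition came from separate cultures, so that p-values measure only the spread between these libraries.

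Before S phase, the origin recognition complex together with CDC6 and CDT1 loads the ring of MCM2 to MCM7 onto DNA. CDC45 and the GINS complex then turn the ring into an active helicase, the DNA polymerases copy both strands, and PCNA, its loader RFC, FEN1 and LIG1 finish the lagging strand. Transcription of most of these genes rises when cyclin E kinases and E2F factors carry a cell past the restriction point, and in neural stem cells the whole set is a familiar sign of cycling progenitors.

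The libraries held between 15429985 and 22940493 counts, with a median of 20324720. The targeted genes followed the labels: MEIS1 had a median of 315 CPM (counts scaled to library size) in MEIS1-OE against 18.0 CPM in ctrl-OE, and of 8.88 CPM in MEIS1-KO against 25.6 CPM in ctrl-KO. MEIS2 had a median of 824 CPM in MEIS2-OE against 22.8 CPM in ctrl-OE, and of 12.2 CPM in MEIS2-KO against 26.4 CPM in ctrl-KO. The neural stem markers NES and VIM were abundant in every library, at 823 CPM or more and 1740 CPM or more. The glial marker GFAP reached at most 0.457 CPM and the neuronal marker NEUROD1 at most 0.268 CPM, but other markers of these types were present. Summed, 8 measured neuronal markers had 397.4 to 1016 CPM over the libraries, 5 of them with means over 1 CPM. For 10 glial markers the sum was 27.52 to 45.03 CPM, with 2 to 4 over 1 CPM by condition. Pluripotency markers, 4 measured and 2 over 1 CPM, summed to 363.3 to 664.5 CPM.

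Promoters of these genes are known to carry E2F sites, and sequences around the start site were searched for the E2F spellings TTTCGCGC, TTTGGCGC, TTTCCCGC and TTTGCCGC on both strands. RefSeq promoter windows of GRCh38.p14, from 250 bases before to 50 bases after the start site, were at hand for 37 of the 45 genes (not for MCM4, MCM5, GINS4, POLD3, RPA2, RPA3, CCNE2 and E2F8), and a gene counted when any of its windows matched. An E2F spelling was found in 21 of the 37 genes (56.8%) and in 3.31% of all 35116 windows. The box CCAAT was found in 21 of the 37 genes (56.8%), against 34.6% of all windows. The CHR element of mitotic genes, spelled TTTGAA or TTCGAA, was found in only MCM6 and RRM1 (5.41%), against 16.4% of all windows. In a list of 30 mitosis genes, of which 25 had a window, the order was the other way round, with an E2F spelling in 3 genes and the CHR element in 19. A match of letters is a description and not a measured binding site.

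The 200 bases before the start site are printed, 5′ to 3′ along the gene with E2F matches in capitals, for 6 genes on which the results turn. MCM6 and POLA1 had the smallest p-values or largest changes below, E2F1 and E2F2 are regulators of the set, and TYMS and SLBP were members that differed from the rest in some comparisons. In MCM6, 4 matches overlapped in pairs, so that they form a pair of capital stretches.
MCM6, chr2:135876444-135876643, minus strand: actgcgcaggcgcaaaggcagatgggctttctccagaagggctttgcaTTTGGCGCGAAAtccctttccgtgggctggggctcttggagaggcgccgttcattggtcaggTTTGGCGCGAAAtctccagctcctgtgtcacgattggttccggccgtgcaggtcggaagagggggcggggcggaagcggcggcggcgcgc
POLA1, chrX:24693718-24693917, plus strand: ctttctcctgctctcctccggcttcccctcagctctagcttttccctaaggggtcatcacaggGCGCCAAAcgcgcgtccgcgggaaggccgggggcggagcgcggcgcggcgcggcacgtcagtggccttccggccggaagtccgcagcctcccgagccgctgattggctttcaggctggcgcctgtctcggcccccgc
E2F1, chr20:33686386-33686585, minus strand: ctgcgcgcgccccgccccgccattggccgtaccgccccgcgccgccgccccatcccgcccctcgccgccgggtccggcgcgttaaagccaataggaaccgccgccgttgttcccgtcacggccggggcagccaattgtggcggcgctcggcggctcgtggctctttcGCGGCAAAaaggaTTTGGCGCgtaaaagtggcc
E2F2, chr1:23531234-23531433, minus strand: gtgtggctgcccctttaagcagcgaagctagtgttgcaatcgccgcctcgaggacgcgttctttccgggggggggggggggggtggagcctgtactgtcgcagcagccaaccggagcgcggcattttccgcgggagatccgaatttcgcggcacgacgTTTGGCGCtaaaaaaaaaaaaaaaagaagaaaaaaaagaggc
TYMS, chr18:657453-657652, plus strand: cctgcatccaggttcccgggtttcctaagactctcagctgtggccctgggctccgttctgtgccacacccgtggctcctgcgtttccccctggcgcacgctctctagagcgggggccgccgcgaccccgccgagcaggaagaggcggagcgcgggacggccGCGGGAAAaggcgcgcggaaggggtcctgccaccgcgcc
SLBP, chr4:1712320-1712519, minus strand: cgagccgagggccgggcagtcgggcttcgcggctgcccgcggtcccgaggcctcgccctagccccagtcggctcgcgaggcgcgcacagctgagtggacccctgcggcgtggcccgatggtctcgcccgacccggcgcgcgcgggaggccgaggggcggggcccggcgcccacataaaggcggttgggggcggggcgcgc

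Levels differed widely among the members. Per kilobase of the canonical transcript, mean levels in ctrl-KO ran from 298 CPM per kb for TYMS, the enzyme that makes thymidylate, to 3.24 CPM per kb for E2F8, a repressor of the E2F family. PCNA, the sliding clamp, followed TYMS with 284 CPM per kb, then MCM7 with 261 CPM per kb and the large ribonucleotide reductase subunit RRM1 with 135 CPM per kb. Apart from E2F8, the lowest were E2F2 with 10.7 CPM per kb, CCNE2 with 12.2 CPM per kb and CDT1 with 13.0 CPM per kb. This order holds for canonical transcripts. By the union of a gene's exons PCNA (258 CPM per kb) came before TYMS (199 CPM per kb), E2F8 was followed from below by POLA1 (5.76 CPM per kb) and GINS3 (6.3 CPM per kb), and LIG1, which seals nicks, moved from rank 14 to rank 33.

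The summed level of the 45 genes fell into a pair of ranges that followed the vector system. In CPM, it ran from 4263 through a median of 4503 to 5118 in ctrl-OE, from 4093 through 4286 to 4407 in MEIS1-OE, and from 4272 through 4349 to 4453 in MEIS2-OE. In the knockout system it ran from 6907 through 7032 to 7129 in ctrl-KO, from 6496 through 6564 to 6916 in MEIS1-KO, and from 6302 through 6507 to 6675 in MEIS2-KO. All 18 activation libraries lay below all 18 knockout libraries, the MEIS2-KO libraries lay below every ctrl-KO library, and the MEIS1-KO libraries overlapped ctrl-KO in the highest library alone. Of all counts, the 45 genes took 0.42% to 0.522% in activation libraries and 0.608% to 0.682% in knockout libraries.

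**Figure D1:**
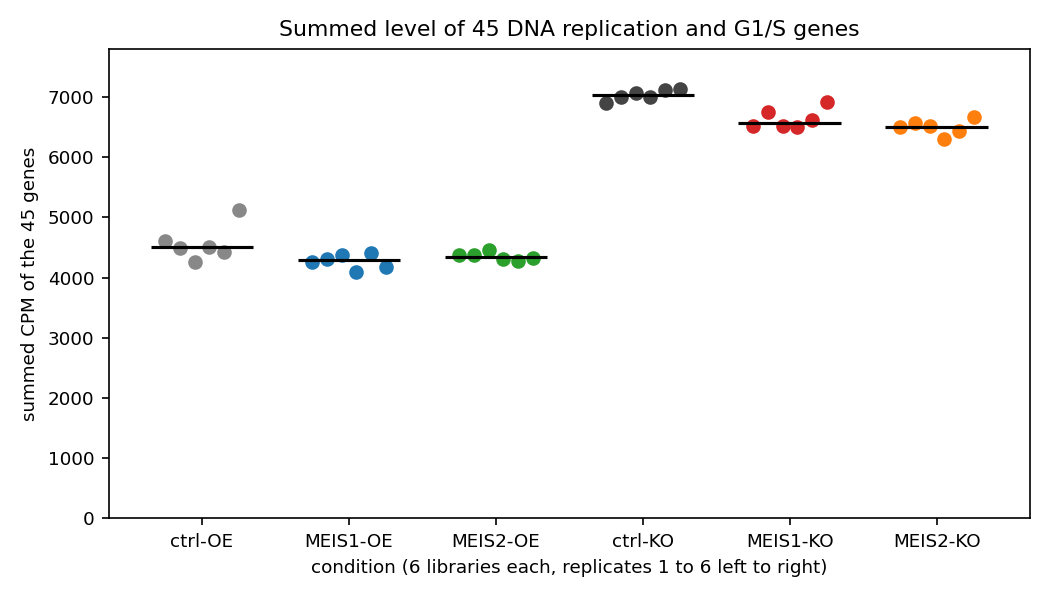
Summed CPM of the 45 genes (vertical axis, from 0) in each of the 36 libraries, by condition on the horizontal axis; points are libraries and the line is the median of 6. The 6 ctrl-OE libraries sit between 4263 and 5118, the 6 ctrl-KO libraries between 6907 and 7129, and ctrl-OE replicate 6 stands above the other ctrl-OE libraries.

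Some members varied far more than others between libraries of the same condition, and of the 7 with the largest spread 6 had at least 55% GC in their transcript. The mean coefficient of variation within a condition was 25.5% for POLD1, the catalytic subunit of polymerase delta, 24.3% for CDT1, 18.6% for the methylation reader UHRF1, 14.3% for MCM5, 11.2% for E2F1 and 11.1% for MCM2, and it was 2.71% for MCM4 and 3.3% for TYMS. POLD1 and CDT1 also had the members' highest GC content, 64.8% and 64.3% of the canonical transcript, against a median of 47.7% over the 45 genes and of 49.3% over 15413 tested genes with a canonical transcript. Libraries differed in the same respect over all genes: the median log2 CPM of the 1542 GC-richest genes minus that of the 1542 GC-poorest genes (10% each), here called GC tilt, departed from its condition by 0.75 in MEIS1-KO replicate 6, 0.52 in ctrl-OE replicate 6, -0.46 in ctrl-KO replicate 2 and -0.74 in MEIS1-OE replicate 3. In those libraries the level of POLD1 departed from its condition by 0.78, 0.84, -0.60 and -0.80 on the log2 scale. Over the 36 libraries, which share the gene set from which tilt is computed, the departure of a gene and the departure of tilt had a Pearson r of 0.97 for POLD1, 0.95 for MCM5, 0.94 for E2F1 and 0.90 for CDT1, of -0.09 for MCM4, and of -0.67 for MCM6 and -0.81 for POLD3, whose transcripts held 43.2% and 42.6% GC. Of the 7 members with the largest spread, E2F8 (20.5%) had no GC-rich transcript, and its r was -0.44. Its level moved with the replicate number: in replicates 2 and 3 it lay above the mean of its condition in 6 of 6 conditions, and in replicates 1, 5 and 6 in 0 of 6. Other members also lay above it in 6 of 6 conditions, among them CCNE2 in replicate 3 and ORC6 in replicate 2. MCM2, MCM5, POLD1, UHRF1, E2F1 and CDC45 did so in replicate 6. GC tilt in replicate 6 likewise lay above its condition in 6 of 6 conditions.

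**Figure D2:**
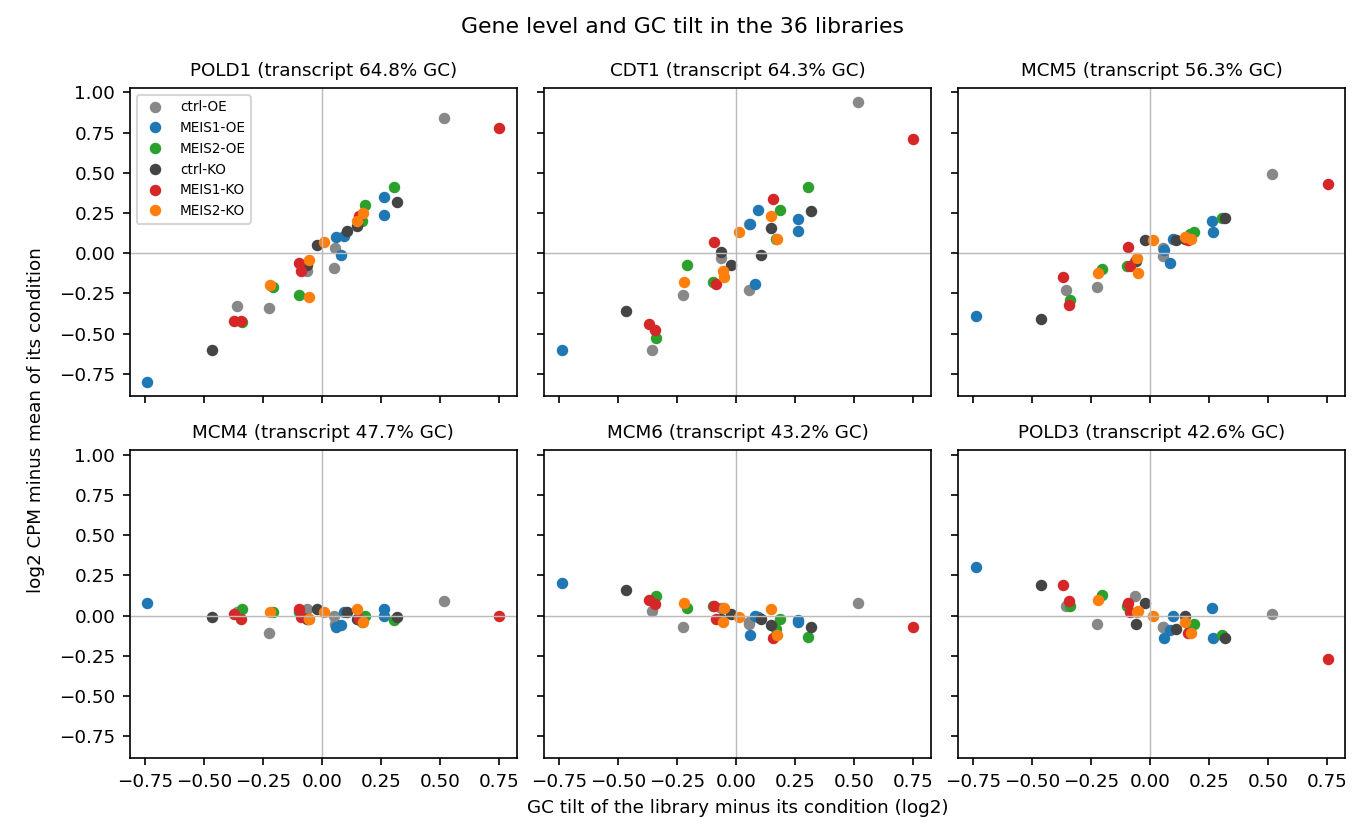
Log2 CPM of 6 genes minus the mean of their condition (vertical axes) against the GC tilt of the library minus its condition (horizontal axes, log2), 36 libraries coloured by condition. POLD1, CDT1 and MCM5 climb with tilt over the whole range, MCM4 stays near 0, and MCM6 and POLD3 slope down.

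Differences were tested for each gene with edgeR's quasi-likelihood test, with p-values adjusted by Benjamini-Hochberg over all 19689 genes, and a gene was called higher or lower at an adjusted p under 0.05. The comparisons of a perturbation with its control share the control libraries with each other and with the comparison of the controls, so that they are not independent. In none of these 5 comparisons was a member higher at an unadjusted p under 0.05, with edgeR or with DESeq2 (0 of 45 each).

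The largest difference in the list was between the control conditions. With the activation system, 43 of the 45 genes were lower in ctrl-OE than in ctrl-KO and 0 were higher, and the median log2 fold change was -0.60. Over all tested genes 23.9% were lower and 27.5% were higher, with a median of 0.049. With the additional requirement of a log2 fold change under -0.58, 25 members were called, against 9.15% of all genes. Every ctrl-OE library lay below every ctrl-KO library for 37 members, against 16.0% of all genes. Scaled by library totals alone, 40 members were lower, 6 of them past the fold requirement, and the median was -0.46 while that of all genes rose to 0.20. The shares of all genes under this scaling are not given here, and those above do not apply to it. In bulk libraries, fewer cells in S phase and less of these transcripts per cell cannot be told apart, and neither can the components of the vector systems.

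All 12 genes of the replicative helicase were lower in ctrl-OE, with log2 fold changes from -0.74 to -0.55. MCM4 ran from 270 through a median of 293 to 310 CPM in ctrl-OE and from 463 through 465 to 482 CPM in ctrl-KO, with no overlap (log2 fold change -0.69 ± 0.031 (SE), adjusted p = 1.31e-20). The adaptor GINS2 fell by 0.74 ± 0.046 (SE) on the log2 scale (adjusted p = 1.33e-16), from a median of 116 CPM in ctrl-KO to 69.5 CPM in ctrl-OE. MCM2 and MCM5, whose libraries spread most in this group, had log2 fold changes of -0.64 ± 0.089 and -0.56 ± 0.11 (SE). The 4 licensing genes were lower as well: ORC1, the ATPase of the origin recognition complex, ran from 43.1 through 45.8 to 53.8 CPM in ctrl-OE and from 80.8 through 82.8 to 89.8 CPM in ctrl-KO (-0.84 ± 0.049 (SE), adjusted p = 3.14e-17), while CDC6 had -0.56 ± 0.041 and CDT1 -0.58 ± 0.19 (SE). Levels of CDT1 overlapped between the groups, because ctrl-OE replicate 6 read 42.0 CPM while the other 5 ctrl-OE libraries read 24.8 CPM or less.

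Of the polymerase genes, POLA1, which starts each new strand together with primase, had the largest difference of all members. It ran from 41.9 through 47.5 to 52.1 CPM in ctrl-OE and from 84.2 through 90.1 to 97.1 CPM in ctrl-KO, which is 0.526 times the ctrl-KO level (log2 fold change -0.93 ± 0.066 (SE), adjusted p = 6.99e-15). POLD1 was the exception of this group, with 36.2 to 82.0 CPM in ctrl-OE and 34.7 to 65.7 CPM in ctrl-KO (-0.17 ± 0.20 (SE), adjusted p = 0.489). With GC tilt as a covariate of the fit, an alternative chosen after the libraries had been compared, POLD1 had a log2 fold change of -0.72 ± 0.059 (SE) (adjusted p = 1.21e-14) and CDT1 of -1.09 ± 0.093 (SE). In that fit 1 member lost its call, 1 gained it, and 44 members had log2 fold changes below 0. Tilt itself differed between the controls, with medians of -2.166 in ctrl-OE and -2.601 in ctrl-KO. The covariate and the comparison therefore cannot be fully told apart. All 9 genes of the clamp, its loader, RPA and lagging-strand processing were lower, PCNA with a log2 fold change of -0.69 ± 0.044 (SE), at 204 to 263 CPM in ctrl-OE and 347 to 373 CPM in ctrl-KO, and so were the 3 genes of nucleotide supply, TYMS (-0.65 ± 0.033), RRM2 (-0.63 ± 0.045) and RRM1 (-0.68 ± 0.057).

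The 5 regulators of the G1/S transition were lower by less, with a median of -0.44. The cyclins that drive S phase entry had -0.44 ± 0.049 for CCNE1 and -0.43 ± 0.091 (SE) for CCNE2. E2F1, an activating E2F, had -0.54 ± 0.088 (SE), E2F2 -0.78 ± 0.069 (SE) and E2F8 -0.37 ± 0.15 (SE, adjusted p = 0.0407). Among the chromatin genes, DTL, which directs the destruction of CDT1 in S phase, had -0.85 ± 0.059 (SE), and 157 to 180 CPM in ctrl-KO against 90.4 to 100 CPM in ctrl-OE. SLBP, the stem-loop protein that processes histone messages, was the member that differed least, with 67.2 through 69.9 to 72.8 CPM in ctrl-OE and 67.6 through 72.7 to 83.8 CPM in ctrl-KO (-0.078 ± 0.050 (SE), adjusted p = 0.2). Markers of other cell types also moved between the systems. The summed level of 7 mesenchymal markers, 5 of them over 1 CPM, was 279 to 446.2 CPM in ctrl-OE and 608.3 to 788.9 CPM in ctrl-KO, that of 8 measured neuronal markers, 5 of them over 1 CPM, with NEUROD1 and STMN2 at 0 in some libraries and at most 0.347 CPM, was 397.4 to 574.5 CPM and 938.9 to 978.4 CPM, and that of 10 neural stem markers was 3128 to 4058 CPM and 4565 to 5110 CPM. Of these lists 2 mesenchymal, 3 neuronal and 8 neural stem markers were called lower in ctrl-OE, against 23.9% of all genes. Called higher were 1, 1 and 0 of these markers, against 27.5% of all genes. Their part in the result was not tested.

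**Figure D3:**
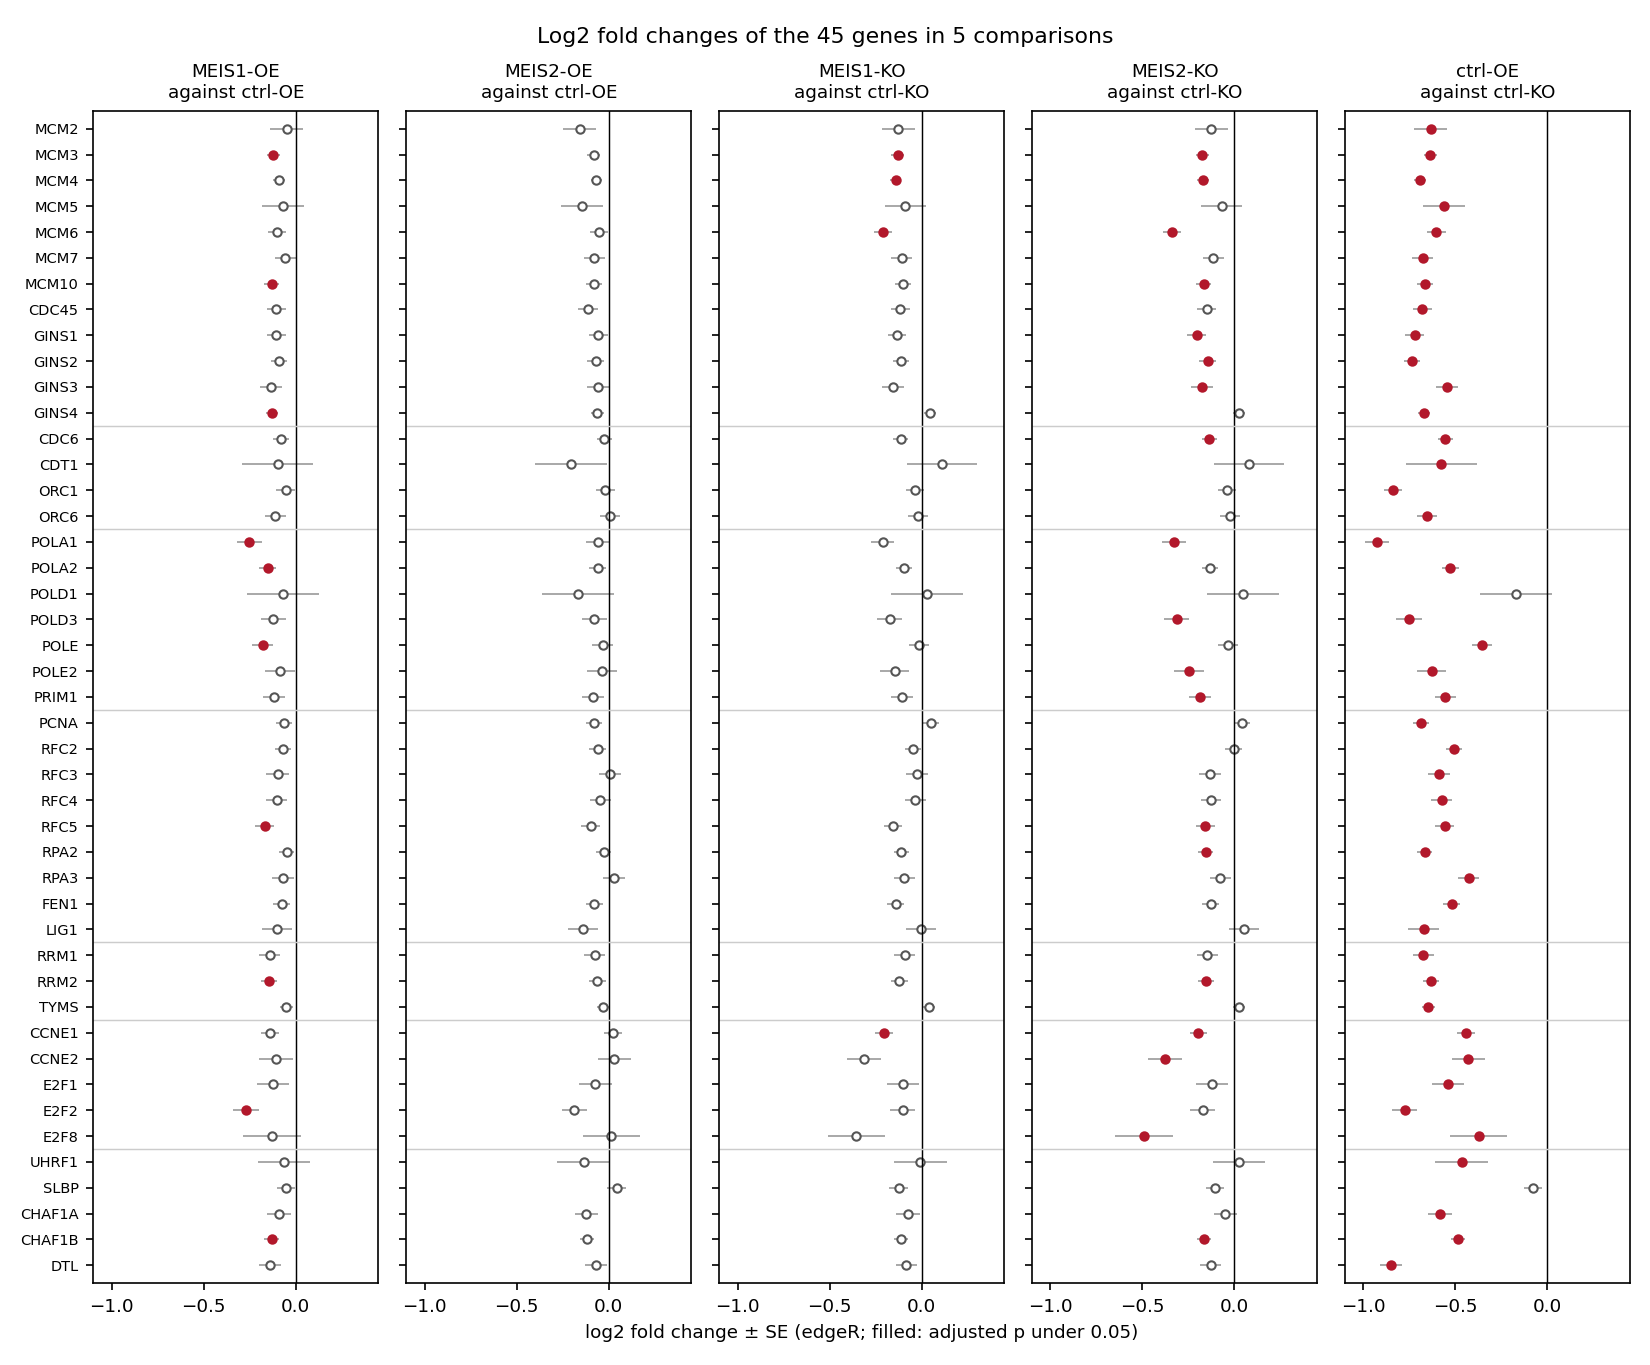
Log2 fold change of each of the 45 genes (rows, grouped by role from the helicase at the top to chromatin genes at the bottom) in 5 comparisons (panels); bars are SE and filled points have an adjusted p under 0.05 (edgeR, 6 libraries a condition). In the last panel 43 points are filled and all 45 lie left of 0, while in the panel of MEIS2-KO 19 are filled and 38 lie left of 0.

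Knockout of MEIS2 came with lower levels of 19 of the 45 genes and higher levels of 0, against 5.98% of all genes lower and 4.04% higher. The median log2 fold change was -0.13, against -0.011 over all genes, and none of the 19 passed 0.58 in size. Every MEIS2-KO library lay below every ctrl-KO library for 13 members, against 4.05% of all genes. The count of members called lower was 12 without ctrl-KO replicate 2 alone, against 19 with all libraries. With a replicate number left out in all conditions it was 12, 10 and 9 for replicates 1, 2 and 5 and 13 to 16 for the others. The share of all genes called is not given for these fits. Of 10 neural stem markers 4 were lower and 1 higher in MEIS2-KO, with a median log2 fold change of -0.18: SOX2 was at 221 to 275 CPM against 283 to 322 CPM in ctrl-KO and PAX6 at 23 to 32.3 CPM against 34.6 to 38.4 CPM, while the abundant VIM was at 2770 to 3420 CPM against 2300 to 2570 CPM. Of 8 neuronal markers 2 were lower and 1 higher, and of 7 mesenchymal markers 1 was higher. Summed, the neural stem markers had 5126 to 6239 CPM in MEIS2-KO against 4565 to 5110 CPM in ctrl-KO, the 8 neuronal markers 785 to 969.7 CPM against 938.9 to 978.4 CPM, and the 7 mesenchymal markers 666.4 to 863.5 CPM against 608.3 to 788.9 CPM. Their part in the result was not tested.

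Of the 12 helicase genes 7 fell: MCM3, MCM4, MCM6, MCM10, GINS1, GINS2 and GINS3. MCM6 showed the smallest p of the list, with 316 through 327 to 369 CPM in ctrl-KO and 240 through 265 to 276 CPM in MEIS2-KO and no overlap (-0.34 ± 0.050 (SE), adjusted p = 2.23e-05). MCM4 fell by 0.17 ± 0.031 (SE, adjusted p = 0.000346), from 463 to 482 CPM to 406 to 429 CPM, and MCM3 by 0.18 ± 0.035 (SE, adjusted p = 0.000975). MCM2 and MCM5 had log2 fold changes of -0.13 ± 0.089 and -0.069 ± 0.11 (SE) and did not pass. GINS4, the subunit of the same complex as GINS1 to GINS3, had 0.025 ± 0.034 (SE), with 98.5 to 109 CPM in ctrl-KO and 101 to 110 CPM in MEIS2-KO. Of the licensing genes only CDC6 passed (-0.14 ± 0.041 (SE), adjusted p = 0.0255), a call lost in 9 of 16 alternatives with adjusted p-values up to 0.095, and CDT1 had 0.079 ± 0.19 (SE).

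Among the polymerase genes POLA1, POLD3, POLE2 and PRIM1 fell. POLA1 ran from 64.5 through 72.1 to 76.0 CPM in MEIS2-KO, below the 84.2 to 97.1 CPM of ctrl-KO (-0.33 ± 0.065 (SE), adjusted p = 0.000931). POLD3, an accessory subunit of polymerase delta, ran from 72.6 through 79.1 to 84.4 CPM, below the 88.5 to 111 CPM of ctrl-KO (-0.31 ± 0.068 (SE), adjusted p = 0.00222). The single-strand binding subunit RPA2 fell by 0.16 ± 0.041 (SE, adjusted p = 0.0102), and RRM2, the regulated subunit of ribonucleotide reductase, by 0.16 ± 0.045 (SE, adjusted p = 0.02). PCNA (340 to 396 CPM in MEIS2-KO, 347 to 373 CPM in ctrl-KO) and TYMS (465 to 510 CPM and 465 to 497 CPM) had log2 fold changes of 0.043 ± 0.044 and 0.024 ± 0.033 (SE), with overlapping ranges.

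The cyclin E genes both fell. CCNE1 ran from 32.0 through 34.1 to 36.3 CPM in MEIS2-KO and from 36.6 through 39.1 to 41.7 CPM in ctrl-KO (-0.20 ± 0.048 (SE), adjusted p = 0.00681). CCNE2 ran from 22.0 through 25.2 to 29.2 CPM and from 30.3 through 31.4 to 37.4 CPM (-0.38 ± 0.091 (SE), adjusted p = 0.00587). E2F8 had the largest fold change of the list, -0.49 ± 0.16 (SE, adjusted p = 0.0383), on levels of 7.00 to 11.4 CPM in MEIS2-KO and 9.89 to 14.7 CPM in ctrl-KO that overlapped. E2F1 had -0.12 ± 0.088 (SE, adjusted p = 0.431). CHAF1B, a subunit of the histone chaperone CAF-1, fell by 0.16 ± 0.039 (SE, adjusted p = 0.00518), and its partner CHAF1A had -0.049 ± 0.064 (SE).

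GC tilt moved with this comparison, since the 1542 GC-richest genes had a median log2 fold change of 0.14 and the 1542 GC-poorest genes of -0.12. The 11 members with at least 55% GC had a median of -0.049 and the other 34 a median of -0.15. With tilt as a covariate, 25 members were lower and 0 higher, against 7.82% of all genes lower. Of the 19 genes 14 were called again, GINS3, POLE2, PRIM1, RFC5 and E2F8 no longer passed, and 11 others passed, among them MCM2 (-0.25 ± 0.045 (SE), adjusted p = 7.84e-05), MCM5 (-0.24 ± 0.042 (SE), adjusted p = 9.06e-05), E2F1 (-0.25 ± 0.038 (SE), adjusted p = 7.88e-06) and POLD1, which turned from 0.047 ± 0.20 (SE) to -0.26 ± 0.056 (SE, adjusted p = 0.000999). MCM6 had -0.29 ± 0.038 (SE, adjusted p = 5.1e-07) in that fit. PCNA, TYMS and GINS4 stayed above 0 and ORC6 turned from -0.024 to 0.031, all without passing.

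**Figure D4:**
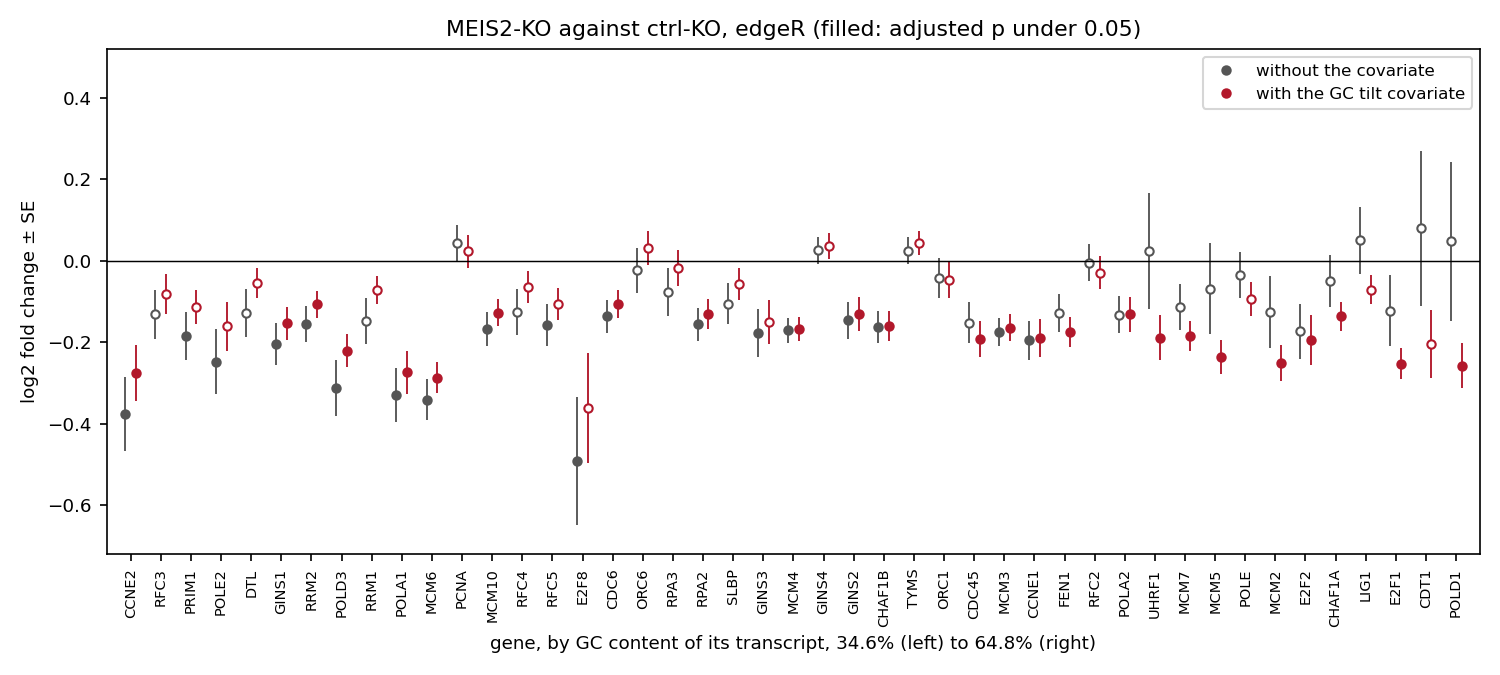
Log2 fold change ± SE of the 45 genes in MEIS2-KO against ctrl-KO (vertical axis), fitted without (grey) and with (red) GC tilt as a covariate, the genes ordered along the horizontal axis by the GC content of their transcript; filled points have an adjusted p under 0.05. At the GC-rich right end the grey bars of POLD1 and CDT1 are long and lie around 0, and the red points of POLD1 and E2F1 lie near -0.26 and -0.25 with short bars.

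Knockout of MEIS1 was read against the same ctrl-KO libraries. Of the 45 genes 4 were lower and 0 higher, against 0.432% of all genes lower and 1.03% higher, with a median log2 fold change of -0.11 against 0.003 over all genes. All 6 libraries lay below ctrl-KO for 5 members, MCM3, MCM4, MCM6, GINS2 and CCNE1, against 0.625% of all genes. MCM4 ran from 419 through 424 to 437 CPM, below the lowest ctrl-KO library at 463 CPM (-0.14 ± 0.031 (SE), adjusted p = 0.00988). MCM6 ran from 259 through 290 to 307 CPM (-0.21 ± 0.050 (SE), adjusted p = 0.0186), and MCM3 from 340 through 369 to 374 CPM (-0.13 ± 0.035 (SE), adjusted p = 0.0491). CCNE1 ran from 32.2 through 33.9 to 35.8 CPM (-0.20 ± 0.049 (SE), adjusted p = 0.0191). With a replicate number left out in all conditions, the count of lower genes was 0 for replicates 1 and 5, 1 for replicate 3, 2 for replicate 2 and 3 for replicates 4 and 6. The share of all genes called is not given for these fits. Of 10 neural stem markers 1 was lower and 1 higher, with a median of -0.13, and PAX6 was at 22.6 to 32.8 CPM against 34.6 to 38.4 CPM in ctrl-KO. Of 8 neuronal markers 1 was lower and of 7 mesenchymal markers 1 was higher. Their sums were 4892 to 6240 CPM, 925.3 to 1016 CPM and 688.3 to 972.9 CPM in MEIS1-KO, and overlapped ctrl-KO, and their part in the result was not tested.

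The other members did not pass. CCNE2 ran from 20.1 through 26.8 to 30.8 CPM, overlapping ctrl-KO at its lower end (-0.31 ± 0.091 (SE), adjusted p = 0.0749), and POLA1 had -0.21 ± 0.065 (SE, adjusted p = 0.0985). The fold changes of MCM2 (-0.13 ± 0.089), MCM5 (-0.089 ± 0.11), CDC6 (-0.11 ± 0.041), RRM2 (-0.12 ± 0.045) and E2F1 (-0.099 ± 0.088) were below 0, and those of PCNA (0.051 ± 0.044), TYMS (0.042 ± 0.033) and CDT1 (0.11 ± 0.19) above it. With GC tilt as a covariate 14 members were lower, against 1.86% of all genes, and they held all 4 genes named above together with MCM2 (-0.19 ± 0.043 (SE), adjusted p = 0.0038), MCM5, MCM7, POLA1, POLD3, RFC5, FEN1, CCNE2, E2F1 and CHAF1A.

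Activation of MEIS1 came with lower levels of 10 of the 45 genes and higher levels of 0, against 3.58% of all genes lower and 5.52% higher. All 45 log2 fold changes were below 0, with a median of -0.10 against -0.001 over all genes, and they ran from -0.27 to -0.048. Without ctrl-OE replicate 6 alone 39 of the 45 were below 0, and without MEIS1-OE replicate 3 alone 41 were. The ranges of MEIS1-OE and ctrl-OE were apart for GINS4 alone, against 1.21% of all genes: it ran from 55.9 through 59.8 to 63.6 CPM in MEIS1-OE and from 64.1 through 65.9 to 66.5 CPM in ctrl-OE (-0.13 ± 0.035 (SE), adjusted p = 0.011). The largest change was that of E2F2, with 23.5 through 27.2 to 29.3 CPM against 29.1 through 31.7 to 40.1 CPM (-0.27 ± 0.070 (SE), adjusted p = 0.00828), in which ctrl-OE replicate 6 was the highest library. POLA1 ran from 36.8 through 38.4 to 44.4 CPM against 41.9 through 47.5 to 52.1 CPM (-0.25 ± 0.067 (SE), adjusted p = 0.0101).

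The other members that fell were MCM3 (-0.12 ± 0.035), MCM10 (-0.13 ± 0.043), the primase-bound POLA2 (-0.15 ± 0.046), POLE, the leading-strand polymerase (-0.18 ± 0.056), the clamp loader subunit RFC5 (-0.17 ± 0.052), RRM2 (-0.15 ± 0.045) and CHAF1B (-0.13 ± 0.040), with adjusted p-values from 0.0209 to 0.0455. MCM2 (-0.048 ± 0.089), MCM5 (-0.068 ± 0.11), CDC6 (-0.080 ± 0.041), CDT1 (-0.099 ± 0.20), PCNA (-0.063 ± 0.044), TYMS (-0.050 ± 0.033), CCNE1 (-0.14 ± 0.049), CCNE2 (-0.11 ± 0.092) and E2F1 (-0.12 ± 0.089) did not pass. In MEIS1-OE 3.58% of all genes were lower and 5.52% higher. Of 10 neural stem markers 2 were lower in MEIS1-OE, of 8 neuronal markers 1 was higher and of 7 mesenchymal markers 1 was higher. Their sums were 3432 to 4366 CPM, 462.6 to 520.6 CPM and 311.3 to 396.4 CPM in MEIS1-OE against 3128 to 4058 CPM, 397.4 to 574.5 CPM and 279 to 446.2 CPM in ctrl-OE, and their part in the result was not tested. In every fit the members' median log2 fold change lay between -0.138 and -0.086. The count of lower replication genes moved with the libraries used, and the share of all genes called is not given for fits with libraries left out. The count was 6 without ctrl-OE replicate 6, whose summed level of the members was the highest of its condition, and 14 without MEIS1-OE replicate 3. With a replicate number left out in all conditions it was 0 for replicates 4 and 6 and 1 for replicate 1. It was 4 for replicates 2 and 5 and 14 for replicate 3. With GC tilt as a covariate it was 22, against 9.00% of all genes, and it held all 10 genes together with MCM5 (-0.17 ± 0.042 (SE), adjusted p = 0.00244), E2F1 (-0.20 ± 0.039 (SE), adjusted p = 0.000103) and LIG1 (-0.18 ± 0.037 (SE), adjusted p = 0.00028) among others.

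Activation of MEIS2, read against the same ctrl-OE libraries, gave 0 called members in either direction by edgeR and 0 by DESeq2, against 0.279% of all genes lower and 1.07% higher. At an unadjusted p under 0.05, 5 members were lower by edgeR and 5 by DESeq2, against 3.45% and 3.06% of all genes, and 0 were higher by either, against 4.2% and 3.45%. The median log2 fold change was -0.067 against -0.009 over all genes. In 0 of the 45 genes were the libraries apart from ctrl-OE on the lower side, against 0.279% of all genes. The lowest p belonged to CHAF1B, with 43.3 through 45.4 to 48.5 CPM against 46.5 through 49.8 to 52.0 CPM (-0.12 ± 0.040 (SE), adjusted p = 0.214). Of the regulators CCNE1 had 0.026 ± 0.049, CCNE2 0.031 ± 0.091 and E2F1 -0.072 ± 0.088 (SE). PCNA had -0.079 ± 0.044, TYMS -0.031 ± 0.033, RRM2 -0.061 ± 0.045, CDC6 -0.024 ± 0.041, CDT1 -0.20 ± 0.20, MCM2 -0.16 ± 0.089 and MCM5 -0.15 ± 0.11 (SE).

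Whether activation and knockout of a gene had different effects was tested by the difference of their log2 fold changes. For MEIS1, 1 member passed on the lower side and 0 on the higher side, against 1.14% and 2.35% of all genes, with a median of -0.015 over the members. It was GINS4, the call being lost without replicate 1, 4, 5 or 6 in all conditions (0 members). It was lower with activation (-0.13 ± 0.035) and had 0.047 ± 0.034 (SE) with knockout (difference -0.18 ± 0.049 (SE), adjusted p = 0.0303). The differences of the other members did not pass, among them PCNA (-0.11 ± 0.063), TYMS (-0.092 ± 0.047), CDT1 (-0.21 ± 0.27), RRM2 (-0.025 ± 0.063), E2F1 (-0.024 ± 0.13), MCM5 (0.022 ± 0.16), CDC6 (0.033 ± 0.058), CCNE1 (0.064 ± 0.069), MCM2 (0.078 ± 0.13) and CCNE2 (0.20 ± 0.13).

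For MEIS2, 1 member passed on the higher side and 0 on the lower side, against 1.39% and 1.18% of all genes, with a median of 0.072. It was MCM6, the call being lost without replicate 1, 2, 4 or 5 in all conditions (0 members). It had -0.053 ± 0.050 (SE) with activation and fell with knockout (difference 0.29 ± 0.071 (SE), adjusted p = 0.0165). The differences of CCNE1 (0.22 ± 0.069, adjusted p = 0.0712), CCNE2 (0.41 ± 0.13, adjusted p = 0.0814) and POLA1 (0.27 ± 0.093, adjusted p = 0.113) did not pass, and neither did those of CDC6 (0.11 ± 0.058), RRM2 (0.095 ± 0.063), E2F1 (0.051 ± 0.12), MCM2 (-0.031 ± 0.13), TYMS (-0.055 ± 0.047), MCM5 (-0.076 ± 0.16), PCNA (-0.12 ± 0.063) and CDT1 (-0.28 ± 0.27).

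In the direct comparison of MEIS1-OE with MEIS2-OE, 1 member was lower and 0 were higher, against 2.82% and 4.93% of all genes. It was CCNE1, with 24.2 through 25.9 to 27.8 CPM in MEIS1-OE and 27.4 through 28.1 to 33.8 CPM in MEIS2-OE (-0.17 ± 0.049 (SE), adjusted p = 0.0264), and the highest MEIS1-OE library lay within the range of MEIS2-OE. The count was 0 without replicate 1, 4 or 5 in all conditions and 5 without MEIS1-OE replicate 3. POLA1 had -0.20 ± 0.067 (SE, adjusted p = 0.068), and CCNE2 (-0.14 ± 0.092), RRM2 (-0.085 ± 0.045), CDC6 (-0.055 ± 0.041), E2F1 (-0.052 ± 0.089), TYMS (-0.019 ± 0.033), PCNA (0.015 ± 0.044), MCM5 (0.078 ± 0.11), CDT1 (0.10 ± 0.20) and MCM2 (0.11 ± 0.089) did not pass. Between MEIS1-KO and MEIS2-KO, edgeR and DESeq2 both called 0 members, against 0.00508% of all genes lower and 0.0102% higher, and 2 members by edgeR and 1 by DESeq2 were higher at an unadjusted p under 0.05, against 3.48% and 1.97% of all genes. MCM6 had 0.13 ± 0.050 (SE, adjusted p = 0.855), and the fold changes of PCNA (0.0082), TYMS (0.018), CDC6 (0.024), E2F1 (0.024), RRM2 (0.035), CDT1 (0.034), CCNE2 (0.065), CCNE1 (-0.0070), MCM5 (-0.020) and MCM2 (-0.00029) were all smaller than their SE.

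A list of 45 other replication genes, which holds the remaining subunits and helpers of the same complexes, was counted beside the members. In ctrl-OE against ctrl-KO 37 of them were lower and 2 higher, with a median of -0.47, and the smallest p belonged to TIMELESS of the fork protection complex (-0.55 ± 0.035 (SE), adjusted p = 3.4e-16), followed by the licensing inhibitor GMNN (-0.62 ± 0.043 (SE), adjusted p = 2.65e-15). In MEIS2-KO 16 were lower and 1 higher, with a median of -0.12, led by DUT, which clears dUTP (-0.29 ± 0.056 (SE), adjusted p = 0.000821), and TIMELESS (-0.17 ± 0.035 (SE), adjusted p = 0.00132). In MEIS1-OE 5 were lower, led by the origin firing factor TICRR (-0.26 ± 0.055 (SE), adjusted p = 0.00127), and in MEIS2-OE and MEIS1-KO 0 were called. Of all tested genes 23.9% were lower and 27.5% higher in ctrl-OE against ctrl-KO, 5.98% and 4.04% in MEIS2-KO, and 3.58% and 5.52% in MEIS1-OE. For MEIS2-OE these shares were 0.279% and 1.07%, and for MEIS1-KO 0.432% and 1.03%.

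Among 30 other regulators of the G1/S transition, 23 were lower and 3 higher in ctrl-OE against ctrl-KO, with a median of -0.46. Of all tested genes 23.9% were lower and 27.5% higher there. In MEIS2-KO 9 of the 30 were lower and 1 higher, against 5.98% and 4.04% of all genes. The higher gene was CDKN1A, the p21 inhibitor of cyclin-dependent kinases, with 440 through 513 to 536 CPM in MEIS2-KO and 310 through 352 to 398 CPM in ctrl-KO (0.52 ± 0.074 (SE), adjusted p = 1.29e-05), and the ranges did not overlap. SKP2, which marks CDK inhibitors for destruction, ran from 125 through 132 to 139 CPM against 155 through 163 to 169 CPM (-0.29 ± 0.044 (SE), adjusted p = 3.75e-05). In MEIS1-KO these were the genes called, CDKN1A with 0.39 ± 0.074 (SE, adjusted p = 0.00218) and SKP2 with -0.19 ± 0.044 (SE, adjusted p = 0.0161). Of all tested genes 1.03% were higher and 0.432% lower in MEIS1-KO. CDKN2C, which encodes the p18 inhibitor of CDK4 and CDK6, moved in opposite directions with the activated genes: it was at 26.4 to 32.5 CPM in MEIS2-OE, 4.79 to 5.86 CPM in ctrl-OE and 2.14 to 3.47 CPM in MEIS1-OE (2.50 ± 0.093 and -0.96 ± 0.11 (SE), adjusted p = 1.84e-22 and 2.05e-08).

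The list of 30 mitosis genes was lower in ctrl-OE against ctrl-KO in 30 of 30 cases, with a median of -0.72 beside the -0.60 of the members. In MEIS1-OE 18 of the 30 were lower, with a median of -0.18, led by the mitotic phosphatase CDC25C (-0.61 ± 0.072 (SE), adjusted p = 2.83e-08) and the kinesin KIF20A (-0.42 ± 0.052 (SE), adjusted p = 1.16e-07), where 10 of the 45 replication genes were lower. In MEIS2-KO the counts were 5 lower and 1 higher, the latter the ubiquitin-conjugating enzyme UBE2C (0.20 ± 0.048 (SE), adjusted p = 0.00496), and the median was -0.065. In MEIS1-KO UBE2C alone was called, as higher (0.25 ± 0.048 (SE), adjusted p = 0.00223), and in MEIS2-OE CDC25C and KIF20A were lower (-0.33 ± 0.071 and -0.23 ± 0.052 (SE)). Of all tested genes 23.9% were lower in ctrl-OE against ctrl-KO, 3.58% in MEIS1-OE, 5.98% in MEIS2-KO and 0.279% in MEIS2-OE. The shares of all genes called higher were 4.04% in MEIS2-KO and 1.03% in MEIS1-KO. The difference between the lists was not tested.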

How the data were processed

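RNA-seq counts of 36 libraries were analysed. The authors deposited counts of reads per gene, not normalized. The submitters' processing notes name Trimmomatic 0.39 and STAR 2.7.0a, and the study's methods align to hg19. The annotation and strand setting of the counting are not given in the sources used here, so that reads of overlapping or antisense genes cannot be told apart. Library totals ran from 15429985 to 22940493.

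A gene was kept when its counts reached 10 in total over the libraries (19689 of 28516). The counts were scaled by TMM and fitted over all 36 libraries with 1 term per condition in edgeR 4.0.16 (R 4.3.3), with two-sided quasi-likelihood tests and Benjamini-Hochberg adjustment. SE was taken as the size of the log2 fold change over the root of F. CPM are TMM-scaled. DESeq2 1.42.0, other scalings and filters, a replicate block, single conditions and left-out replicates were alternatives. The GC tilt covariate, scaling by totals and single left-out libraries were chosen after seeing the data. GC content and length came from canonical GENCODE transcripts lifted to GRCh37.

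The same replicate numbers occur in all conditions, but the labels do not say that they mark a shared culture or batch. Deviations of same-numbered libraries of different conditions had a mean correlation of 0.0361, and 16 of 90 pairs exceeded 0.1. For different numbers the mean was -0.00732, and 51 of 450 pairs exceeded 0.1. All replicates of a condition differed by more than sampling noise (chi-square per degree of freedom from 2.74). The tests were checked on simulated data. Members and gene lists were chosen with earlier results of these data known. Named were up to 12 called members per comparison by p, 10 fixed anchors (PCNA, MCM2, MCM5, CDC6, CDT1, RRM2, TYMS, CCNE1, CCNE2 and E2F1) in every comparison, and up to 3 genes of each other list by p, of which 1 is not reported here. Further members were named after their values were seen. Promoter windows are from RefSeq.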

Additional observations from a re-analysis of the deposited data

Results flagged for a closer look

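For each of the 45 genes and for their summed level, in each condition, the highest or lowest of the 6 libraries was compared with its nearest neighbour by Dixon's criterion (gap over range above 0.625). Of 276 such groups 27 stood out (9.78%), where chance flags about 1 in 20. The groups are not independent, because a library enters many of them.

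In ctrl-OE replicate 6, 8 genes were far above the other ctrl-OE libraries: MCM2 at 299 CPM, MCM5 at 144 CPM, MCM7 at 495 CPM, POLD1 at 82.0 CPM, FEN1 at 155 CPM, E2F1 at 89.5 CPM, E2F2 at 40.1 CPM and UHRF1 at 110 CPM. Its GC tilt was 0.52 above its condition, and the part of tilt in these values was not tested. In MEIS1-OE replicate 3, whose tilt was 0.74 below its condition (-0.74), 7 genes were far above: MCM6 at 233 CPM, MCM10 at 88.1 CPM, RFC5 at 40.9 CPM, RPA3 at 32.5 CPM, RRM1 at 290 CPM, RRM2 at 224 CPM and DTL at 107 CPM. In ctrl-KO replicate 2, MCM2 was far below at 287 CPM, while MCM6 at 369 CPM and PRIM1 at 56.0 CPM were far above.

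Single genes stood out in other libraries. They were ORC1 at 89.8 CPM in ctrl-KO replicate 3 and CHAF1B at 67.3 CPM in MEIS1-KO replicate 2, both high, and MCM3 at 340 CPM and POLA2 at 74.5 CPM in MEIS1-KO replicate 3, both low. In MEIS1-KO replicate 6, ORC6 was low at 94.7 CPM and FEN1 high at 192 CPM. In MEIS2-KO replicate 3, POLE2 was low at 22.3 CPM. In MEIS2-OE replicate 1, GINS1 at 62.5 CPM and RPA3 at 32.6 CPM were high.

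Activation and knockout differed in their effect by the test of the difference itself for GINS4 with MEIS1 (-0.18) and for MCM6 with MEIS2 (0.29). Each was 1 of 45 members, against 1.14% of all genes lower for MEIS1 and 1.39% higher for MEIS2. The call of GINS4 was lost in 5 of 19 alternatives and that of MCM6 in 4 of 17.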

How the results depend on the processing

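In ctrl-OE against ctrl-KO, 40 to 43 of 45 members were lower under all alternatives run, and in MEIS2-OE and between the knockouts 0 were called, while the counts of the other comparisons moved. Fitted on only the conditions compared, MEIS1-OE had 1 lower member, MEIS1-KO 2, MEIS1-OE against MEIS2-OE 0, the MEIS1 difference between activation and knockout 0, and the MEIS2 difference 2 higher. With the GC tilt covariate these counts were 22, 14, 4, 2 and 3. With it 9.00% of all genes were lower in MEIS1-OE and 1.86% in MEIS1-KO, against 3.58% and 0.432% without it. Shares of all genes are not given here for the other fits. MEIS1-OE against MEIS2-OE had 2 lower members with DESeq2 and 2 with library totals only. Without single replicates or libraries, the lower counts ran from 0 to 14 in MEIS1-OE, 0 to 5 in MEIS1-KO, 9 to 16 in MEIS2-KO, 0 to 5 in MEIS1-OE against MEIS2-OE and 0 to 1 in the MEIS1 difference, and the higher count from 0 to 2 in the MEIS2 difference. With the replicate number as a block, 4 members were higher in the MEIS2 difference against 1 without it, and E2F8 in MEIS2-KO had -0.51 ± 0.072 (SE, adjusted p = 1.16e-05). The labels do not say that a number marks a shared culture or batch. Between conditions, deviations correlated over 0.1 in 16 of 90 same-numbered pairs and in 51 of 450 pairs of different numbers. For 16 of 36 libraries, the mean correlation with libraries of other conditions was highest for their own number. This is a hint from the data and not from the design. The causes were not tested, and some of these fits had fewer libraries. Of 2047 recomputed values of named genes, 112 lost the call, 25 gained it, 709 kept call and sign, 1133 stayed uncalled with the same sign, 68 uncalled values turned sign, and 0 called values did. The member with the lowest level, E2F8, had 6.75 CPM or more in every library.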
